A study of Mus musculus with 24 samples.

Results

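The genes of the inhibitor of NF-κB (IκB) family were followed through sorted CD4 and CD8 cells of tumor-bearing mice given LCL161 or vehicle. They were chosen by symbol, with earlier results of these data known. The typical IκB genes are Nfkbia, Nfkbib and Nfkbie, and the atypical, mainly nuclear ones are Nfkbid, Nfkbiz and Bcl3. They are 6 of the 55025 gene symbols counted, and all 6 were among the 20174 genes that passed the filter on low counts, with a lowest count of 274 in any library (Nfkbiz). Every mouse lacked the T cell receptor α chain (TCRα-/-) and carried pancreatic tumors grown from M8 live-passage organoids placed in the pancreas. LCL161, a SMAC mimetic that binds inhibitor of apoptosis proteins and leads to loss of cIAP1 and cIAP2, was given by gavage at 75 mg/kg every 3 days from day 4, with 3 doses in all before collection on day 12. Total RNA was sequenced from CD45+CD4+ and CD45+CD8+ cells sorted from spleen and tumor. This gave 8 groups of 3 libraries, since CD4 and CD8 cells of either tissue were each taken after vehicle or LCL161. No group with an intact TCRα gene was analysed here, 1 organoid line stands for all tumors, and no label says whether replicates came from separate mice, so p-values measure the spread between these libraries, which may in part be technical.

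NF-κB dimers are held inactive in the cytoplasm by the typical IκB proteins, whose ankyrin repeats cover the dimers' nuclear localisation signals until IκB kinase marks the inhibitor for destruction by the proteasome. Nfkbia is itself a target of NF-κB, so that a new inhibitor is made as the pathway runs, while Nfkbib and Nfkbie encode inhibitors that are resynthesised more slowly. The atypical members act in the nucleus on p50 or p52 dimers: Nfkbid encodes IκBNS, which helps T cells to induce Foxp3, Nfkbiz encodes IκBζ, which takes part in type 17 helper programs, and Bcl3 encodes a coregulator known for supporting the survival of activated T cells. Loss of cIAP1 and cIAP2 is known to stabilise the kinase NIK and so to open the non-canonical NF-κB pathway, which makes p52 from the Nfkb2 product.

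The κB consensus, the 10-base sequence that NF-κB dimers bind, was sought on both strands in RefSeq windows (GRCm38.p6) from 250 bases before to 50 bases after each gene start. A match read on both strands was counted once. Windows were used for 5 of the 6 genes, all but Nfkbiz. The consensus was found in the windows of 4 genes, and these sites are shown because the genes of 3 of them (Nfkbia, Nfkbie and Bcl3) are among those that rose with LCL161, while Nfkbid passed the test in no population. Each line gives 30 bases, 5′ to 3′ on the strand of the gene, with the match in capitals.
Nfkbia: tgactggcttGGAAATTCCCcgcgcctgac
Nfkbie: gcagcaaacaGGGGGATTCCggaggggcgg
Nfkbid upstream match: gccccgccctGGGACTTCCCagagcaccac
Nfkbid downstream match: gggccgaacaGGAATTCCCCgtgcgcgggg
Bcl3: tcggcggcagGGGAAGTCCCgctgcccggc
The Nfkbia match lay at chr12:55492667-55492676, 20 to 29 bases before the gene start. The 250 bases before that start, chr12:55492648-55492897 on the minus strand, are shown whole because this gene had the lowest p of all genes in the average response. They hold 1 match, in capitals.
Nfkbia upstream: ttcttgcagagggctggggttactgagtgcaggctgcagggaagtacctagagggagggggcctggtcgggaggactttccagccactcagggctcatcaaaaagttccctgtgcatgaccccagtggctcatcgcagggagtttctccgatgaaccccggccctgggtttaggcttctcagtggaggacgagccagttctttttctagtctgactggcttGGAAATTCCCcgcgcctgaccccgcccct
The Nfkbie match lay at chr17:45555594-45555603, 97 to 106 bases before its start. The 2 Nfkbid matches lay at chr7:30422180-30422189 and chr7:30422225-30422234, before the second of 3 listed starts, and its other 2 windows held none. The Bcl3 match lay at chr7:19822744-19822753, 3 to 12 bases after the start, and the Nfkbib window held none. Of all 27025 genes with such windows 9.6% had a match, and of the 11763 that were also tested here 12.1%. A match is a description of the letters and not evidence of binding.

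Library totals ran from 15455728 to 25145426 counts. Cd4 was at 688 to 1430 CPM (counts scaled to the size of each library) in the CD4 libraries and at 7.07 to 31.7 CPM in the CD8 libraries, and Cd8a was at 565 to 1159 CPM in the CD8 libraries and at 0.0469 to 3.98 CPM in the CD4 libraries, so both gates matched their labels by these genes. Cd8b1, the other CD8 chain gene, was at 326 to 1175 CPM in the CD8 libraries and at 5.28 to 97.1 CPM in the CD4 libraries, with means in spleen CD4 cells of 62.0 CPM after vehicle and 17.6 CPM after LCL161 that overlapped, and in tumor CD4 cells of 34.4 and 13.1 CPM. Trac, the constant segment of the TCRα gene, still had counts, at 63.2 to 1082 CPM in CD4 libraries and 9.30 to 35.5 CPM in CD8 libraries. No label says which exons were removed. The sorted cells were not free of other types. The summed level of 9 monocyte and macrophage markers was 210 to 688 CPM over the spleen CD4 libraries and 170 to 433 CPM over the spleen CD8 libraries, against 1076 to 6105 CPM in tumor CD4 and 891 to 2265 CPM in tumor CD8 libraries.

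Nfkbia and Bcl3 rose with LCL161 in all 4 populations, Nfkbia by 1.35 to 1.79 and Bcl3 by 1.00 to 1.31 on the log2 scale. Nfkbiz passed in the 2 CD8 populations and Nfkbie in tumor CD8 cells, and both also passed in the average over the 4. In CD4 cells the Nfkbiz estimates were 1.78 (spleen) and 1.67 (tumor) without passing. The CD8 minus CD4 difference of the Nfkbiz and Nfkbie responses passed in neither tissue. Nfkbib had a positive estimate in every population that passed only when the 4 were averaged, and Nfkbid passed nowhere. The test was edgeR's quasi-likelihood test over all 20174 genes, with Benjamini-Hochberg adjusted p under 0.05 as the threshold, and fold changes are given as log2 values ± SE. These are bulk libraries, in which fewer cells of a type and less RNA per cell cannot be told apart.

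**Figure D1:**
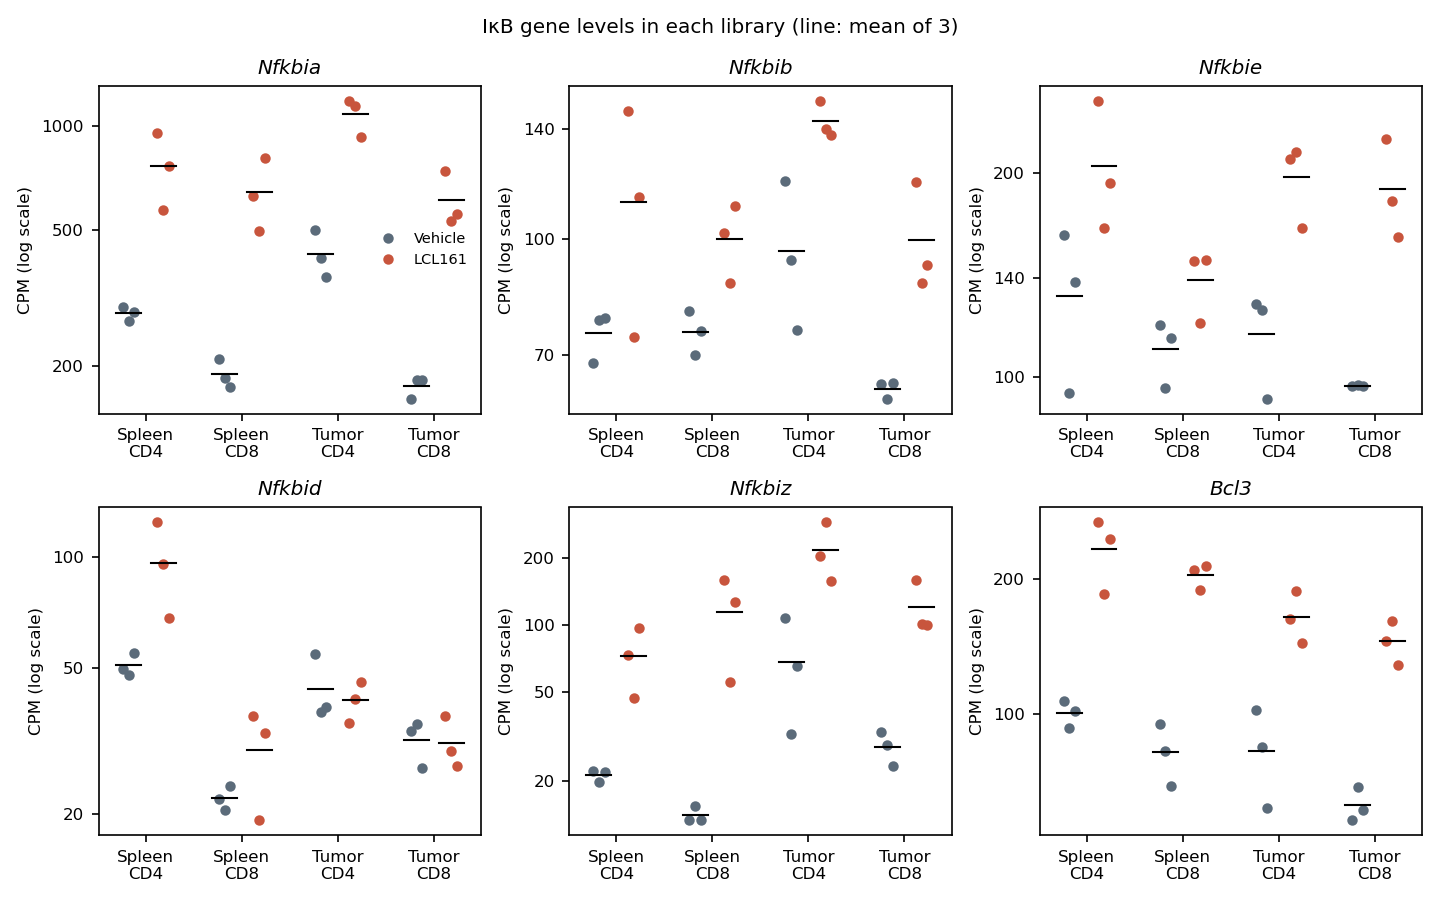
Level of each IκB gene in every library, in CPM on a log axis; grey points are vehicle, red points are LCL161, and the line is the mean of 3. All LCL161 libraries lie above all vehicle libraries of the same population for Nfkbia and Bcl3, which is not so for Nfkbid in 3 populations.

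Nfkbia (chromosome 12, 55489410 to 55492647, minus strand, GRCm38) encodes IκBα, the inhibitor of the fast negative feedback loop. In spleen CD4 cells it was at 299, 271 and 288 CPM in the vehicle libraries and at 955, 571 and 766 CPM in the LCL161 libraries. Spleen CD8 cells had 210, 185 and 175 CPM after vehicle and 626, 496 and 805 CPM after LCL161. In the tumor, CD4 cells went from 499, 414 and 363 to 1182, 1144 and 930 CPM. Tumor CD8 cells went from 161, 183 and 182 to 737, 531 and 554 CPM. Every LCL161 library lay above all vehicle libraries of its population. The log2 fold changes were 1.42 ± 0.19 in spleen CD4 (adjusted p = 0.00546), 1.76 ± 0.19 in spleen CD8 (8.53e-05), 1.35 ± 0.19 in tumor CD4 (0.0109) and 1.79 ± 0.19 in tumor CD8 cells (0.000406). Averaged over the 4 populations the rise was 2.99-fold, a log2 fold change of 1.58 ± 0.10 (adjusted p = 2.83e-08). Its p ranked 1 of the 20174 genes in that average, in tumor CD4 and in tumor CD8 cells, 2 in spleen CD4 and 4 in spleen CD8 cells.

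Nfkbib (chromosome 7, 28758251 to 28767512, minus strand) encodes IκBβ. Its spleen CD4 libraries read 68.3, 77.9 and 78.5 CPM after vehicle and 148, 74.1 and 114 CPM after LCL161, so that 1 treated library fell among the controls. Spleen CD8 cells had 80.1, 70.1 and 75.3 CPM after vehicle and 102, 87.3 and 110 CPM after LCL161. Tumor CD4 cells had 119, 93.6 and 75.6 CPM against 152, 140 and 137 CPM, and tumor CD8 cells 64.0, 61.3 and 64.3 CPM against 119, 87.3 and 92.3 CPM. The treated libraries lay above the controls in these 3 populations without passing the test: the log2 fold changes were 0.58 ± 0.19, 0.41 ± 0.19, 0.58 ± 0.19 and 0.66 ± 0.19 in the order above, with adjusted p of 0.167, 0.193, 0.172 and 0.200. The average over the populations did pass, at 0.55 ± 0.10 (adjusted p = 0.00103). The gene shares 42 exon bases with Sirt2 and 314 with Ccer2 on the other strand. With the strand setting of the counting not given, reads there cannot be told apart. Over the 24 libraries Ccer2 had 149.5 counts and Sirt2 49060.5.

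Nfkbie (chromosome 17, 45555703 to 45563169, plus strand) encodes IκBε. Spleen CD4 cells had 162, 94.5 and 138 CPM after vehicle and 256, 166 and 193 CPM after LCL161. Spleen CD8 cells had 119, 96.2 and 114 CPM and then 120, 148 and 149 CPM in ascending order. Both spleen pairs were separate by a narrow margin and neither passed (0.64 ± 0.19, adjusted p = 0.141, and 0.34 ± 0.19, adjusted p = 0.291). In tumor CD4 cells the libraries read 128, 125 and 92.8 CPM after vehicle and 210, 215 and 166 CPM after LCL161 (0.77 ± 0.19, adjusted p = 0.0815). In tumor CD8 cells the 3 controls were nearly equal at 96.8 to 97.1 CPM, and the treated libraries read 225, 182 and 161 CPM. This last difference passed, at 0.97 ± 0.20 (adjusted p = 0.0441), and so did the average over populations, at 0.68 ± 0.10 (adjusted p = 2.46e-04).

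Nfkbid (chromosome 7, 30421732 to 30428746, plus strand) encodes IκBNS. It was the only member with estimates of both signs. In spleen CD4 cells it read 49.7, 47.9 and 54.6 CPM after vehicle and 124, 95.7 and 68.1 CPM after LCL161, with all treated libraries higher but no pass (0.92 ± 0.23, adjusted p = 0.0786). Spleen CD8 cells had 22.1, 20.6 and 23.9 CPM and then 37.0, 19.3 and 33.3 CPM (0.43 ± 0.23, adjusted p = 0.250). In the tumor the groups overlapped in both populations: CD4 cells had 54.3, 38.0 and 39.0 CPM after vehicle and 35.4, 41.2 and 45.6 CPM after LCL161 (-0.10 ± 0.23, adjusted p = 0.894). Tumor CD8 cells had 33.7, 35.1 and 26.8 CPM and then 37.1, 29.8 and 27.1 CPM (-0.03 ± 0.23, adjusted p = 0.996). The average was 0.31 ± 0.11 (adjusted p = 0.0661). It passed, at 0.34 to 0.36, without LCL161 replicate 3 of spleen CD4, LCL161 replicate 2 of spleen CD8 or vehicle replicate 1 of tumor CD4 cells (adjusted p of 0.0311, 0.0194 and 0.0473).

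Nfkbiz (chromosome 16, 55811375 to 55838899, minus strand) encodes IκBζ and had the largest fold changes of the family together with the widest spread. Spleen CD4 cells read 22.1, 19.7 and 22.0 CPM after vehicle and 73.8, 47.1 and 97.7 CPM after LCL161 (1.78 ± 0.40, adjusted p = 0.0534). In spleen CD8 cells it was lowest of all at 13.3, 15.3 and 13.3 CPM and reached 160, 55.6 and 127 CPM, an 8.18-fold rise (3.03 ± 0.42, adjusted p = 5.04e-04). Tumor CD4 cells had the highest levels, 108, 32.4 and 65.5 CPM after vehicle and 204, 290 and 159 CPM after LCL161. These controls had the widest relative spread of any Nfkbiz group. The difference did not pass (1.67 ± 0.39, adjusted p = 0.0684), at an SE close to those of the other populations. Tumor CD8 cells went from 32.9, 28.8 and 23.3 to 160, 102 and 100 CPM (2.09 ± 0.40, adjusted p = 0.0294). Treated and control libraries were separate in all 4 populations. The average was 4.41-fold, at 2.14 ± 0.20 (adjusted p = 4.59e-06).

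Bcl3 (chromosome 7, 19808462 to 19822770, minus strand) encodes the nuclear IκB protein Bcl-3, and its controls and treated libraries were separate in every population. Spleen CD4 cells read 107, 93.1 and 102 CPM after vehicle and 268, 185 and 246 CPM after LCL161 (1.21 ± 0.17, adjusted p = 0.00764). Spleen CD8 cells went from 94.7, 82.6 and 69.1 to 210, 189 and 214 CPM (1.31 ± 0.17, adjusted p = 3.24e-04). The smallest change was in tumor CD4 cells, from 102, 84.2 and 61.6 to 163, 188 and 144 CPM (1.00 ± 0.17, adjusted p = 0.0262). Tumor CD8 cells had 57.8, 68.8 and 60.9 CPM and then 146, 161 and 129 CPM (1.22 ± 0.17, adjusted p = 0.00461). The average was 2.27-fold, at 1.19 ± 0.09 (adjusted p = 3.16e-07), ranked 2 after Nfkbia among all genes tested. The antisense gene Gm16175, with 3072 counts of its own over the 24 libraries, shares 161 exon bases with Bcl3. With the strand setting of the counting not given, reads of the 2 genes in those bases cannot be told apart.

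**Figure D2:**
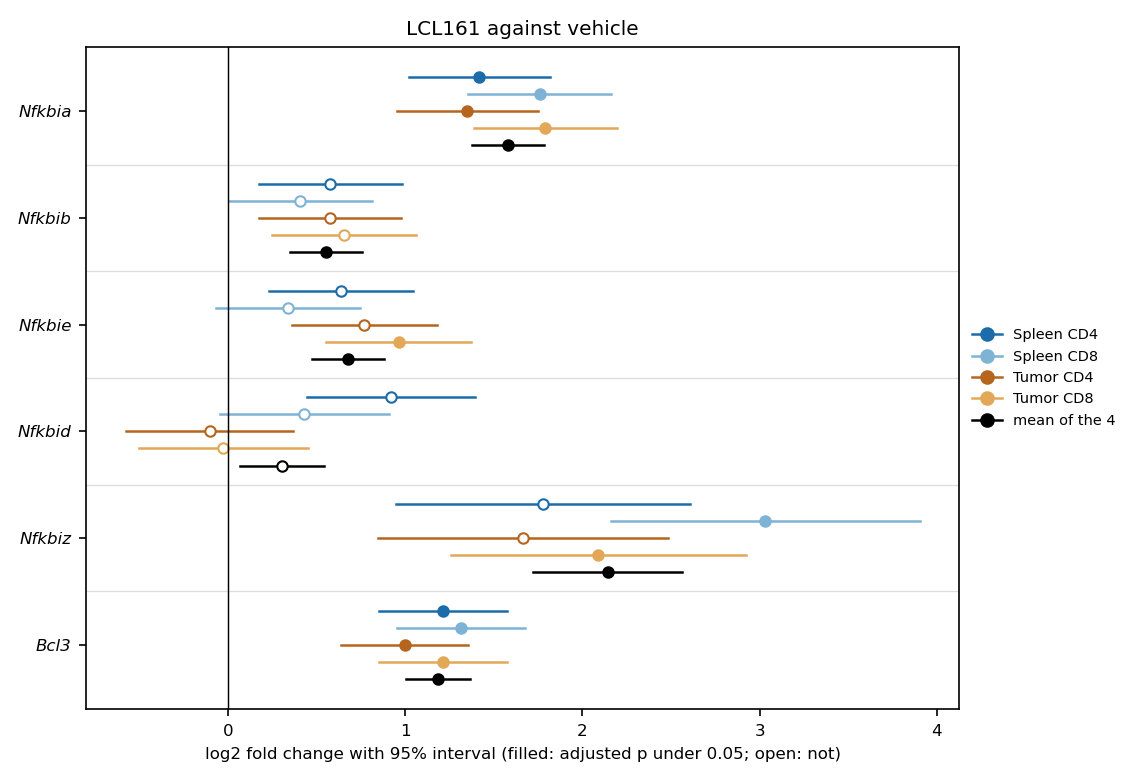
Log2 fold change of LCL161 against vehicle with its 95% interval for each gene in the 4 populations and for their mean (black); filled points passed at an adjusted p under 0.05. Nfkbia and Bcl3 are filled throughout and lie within a narrow band, Nfkbiz reaches furthest at 3.03, and the tumor values of Nfkbid are -0.10 and -0.03.

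In spleen CD4 cells 2 of the 6 genes passed, both higher, where 0.238% of all genes tested passed as higher and 0.431% in either direction. In spleen CD8 cells 3 of 6 passed, against 4.1% of all genes as higher and 8.28% in either direction. Tumor CD4 cells gave 2 of 6, against 0.114% and 0.322%. Tumor CD8 cells gave 4 of 6, against 0.233% and 0.248%, and the average over the populations 5 of 6, against 9.73% and 18.7%. None passed as lower. In each population 5 of the 6 had all treated libraries above all controls, which was so for 7.67%, 21.1%, 7.14% and 11.6% of all genes in the same order. The median log2 fold change of the family was 1.07, 0.87, 0.88 and 1.09, beside 0.02, 0.07, -0.01 and 0.00 over all genes. Since the members were chosen with earlier results of these data known, these counts and shares are a description and no independent support.

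Some calls rested on few libraries. Without LCL161 replicate 1 of the spleen CD4 cells none of the 6 passed there, with Nfkbia then at an adjusted p of 0.0565 and a log2 fold change of 1.22 and Bcl3 at 0.0685 and 1.10. Without LCL161 replicate 3 Nfkbid passed there (1.11, adjusted p = 0.0277), and without LCL161 replicate 2 Nfkbiz did (2.00, adjusted p = 0.0453). Without vehicle replicate 2 of the tumor CD4 cells none passed there either, with Nfkbia at 0.0520 and Bcl3 at 0.0888, and without LCL161 replicate 1 or 2 Bcl3 was lost (adjusted p of 0.0864 and 0.111). Without vehicle replicate 1 Nfkbiz passed (2.17, adjusted p = 0.0434). In tumor CD8 cells Nfkbie and Nfkbiz were each lost when any library but LCL161 replicate 3 was left out (adjusted p up to 0.242 and 0.181), and Nfkbia alone passed without vehicle replicate 1 or LCL161 replicate 2. The calls in spleen CD8 cells and that of Nfkbia in tumor CD8 cells held with each library left out in turn. When only the 6 libraries compared were fitted, no gene of any kind passed in spleen CD4 or tumor CD4 cells, the family included, while the spleen CD8 and tumor CD8 counts stayed at 3 and 4. With DESeq2 the spleen CD4 count was 4, adding Nfkbid and Nfkbiz, and the tumor CD4 count 4, adding Nfkbie and Nfkbiz. Over all genes, settings that kept every compared library gave up to 633 calls in spleen CD4 and 719 in tumor CD4 cells. In the main fit these were 87 and 65.

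Markers of other cells were read from 11 lists, and a list counts as separate where its summed CPM did not overlap between treated and control libraries. With random labels, 3 against 3 libraries are separate with probability 0.1, so a count of 1 list in 11 is near that share. In spleen CD8 cells 3 lists were separate, all lower after LCL161. The 7 markers of conventional dendritic cells, each lower, summed to 1546 to 1697 CPM after vehicle and 168 to 503 CPM after LCL161. The 4 plasma cell markers, all with lower means, summed to 644 to 1156 CPM and then 284 to 629 CPM, and the 4 mast cell and basophil markers, 3 with lower means, to 129 to 169 CPM and then 37.5 to 74.3 CPM. None of these markers was at 0 in every library of a group. The 4 CD3 complex genes of the T cells themselves, all with higher means, summed there to 1300 to 1464 CPM against 1703 to 2258 CPM. In tumor CD4 cells 1 list was separate: all 9 monocyte and macrophage markers had lower means after LCL161, with sums of 2926 to 6105 CPM in the controls and 1076 to 1791 CPM in the treated libraries and none at 0. The sums of the 7 neutrophil markers overlapped there (139 to 220 CPM and 91.3 to 147 CPM), although 6 of the 7 were lower in all treated libraries. In tumor CD8 cells the monocyte and macrophage sums were 1777 to 2265 CPM after vehicle and 891 to 1118 CPM after LCL161, again with all 9 lower and none at 0. The sums for mast cells and basophils (17.1 to 26.1 CPM and 34.2 to 105 CPM, with Fcer1a at 0 after LCL161) and for ductal and tumor epithelium (25.9 to 37.15 CPM and 37.16 to 47.4 CPM) were separate and higher there. Their single markers did not agree: for mast cells and basophils 1 of 4 had a higher mean and 3 a lower one. For epithelium 2 of 4 had higher and 2 lower means. In spleen CD4 cells 1 list was separate, that for ductal and tumor epithelium, at 11.1 to 16.1 CPM and then 6.09 to 10.4 CPM. Of its 4 markers, 2 had higher and 2 lower means after LCL161. All 5 plasmacytoid dendritic cell markers had lower means in spleen CD4 cells after LCL161, with sums of 487 to 2246 CPM against 281 to 786 CPM that overlapped. The 7 neutrophil markers, all with higher means, ran there from 30.6 to 355 CPM and from 137 to 1108 CPM and overlapped too, as did the monocyte and macrophage sums (385 to 454 CPM and 210 to 688 CPM). The part of these markers in the changes of the IκB genes was not tested.

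Whether the response differed between tissues or between CD4 and CD8 cells was tested as the difference of the 2 log2 fold changes. None of the 6 genes passed in any of 4 such differences. Over all genes 0.00991% passed for CD4 cells of the tumor minus the spleen, 0.0248% for the same in CD8 cells, 0.292% for spleen CD8 minus CD4 and 0% for tumor CD8 minus CD4. At an unadjusted p under 0.05 edgeR counted 1, 1, 1 and 0 members, against 10.2%, 9.04%, 12.1% and 5.53% of all genes, and DESeq2 passed none at its adjusted threshold. The member at that level in CD4 cells was Nfkbid, whose tumor minus spleen difference was -1.02 ± 0.32 (95% interval -1.69 to -0.35, adjusted p = 0.317). In CD8 cells it was Nfkbie, with a larger change in the tumor by 0.63 ± 0.27 (adjusted p = 0.515). Between the spleen populations it was Nfkbiz, with a larger change in CD8 cells by 1.26 ± 0.55 (95% interval 0.11 to 2.40, adjusted p = 0.360). For Nfkbia the tumor minus spleen difference was -0.07 in CD4 cells, with a 95% interval of -0.62 to 0.49, and 0.03 in CD8 cells, with an interval of -0.52 to 0.59. For Bcl3 the 4 differences lay between -0.22 and 0.22, and the widest interval bounds were -0.72 and 0.72. These intervals do not show that the responses were equal.

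Nfkbia made up a larger share of the family's transcripts after LCL161. Levels of different genes were set side by side as CPM per kb of exon, with exon lengths from the GRCm38 annotation, and each gene was expressed as a share of the sum over the 6. That sum went from 322 ± 21.8 to 743 ± 177 (SD, n = 3) in spleen CD4, from 234 ± 19.7 to 609 ± 121 in spleen CD8, from 412 ± 74.7 to 932 ± 111 in tumor CD4 and from 215 ± 8.22 to 581 ± 97.0 in tumor CD8 cells. Nfkbia was the most abundant member in every group and made up 55.2% ± 1.22 of the sum in spleen CD4 controls and 63.7% ± 1.14 after LCL161. Its share went from 50.3% ± 1.17 to 65.2% ± 3.21 in spleen CD8, from 64.3% ± 1.24 to 72.3% ± 1.34 in tumor CD4 and from 50.8% ± 1.98 to 64.8% ± 2.01 in tumor CD8 cells. The shares of controls and treated libraries did not overlap in any population. An exact permutation test of 3 against 3 cannot give less than p = 0.1, so no test is given for a single share.

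Nfkbib and Nfkbie, the other typical inhibitors, took smaller shares after treatment although their mean levels in CPM were higher. Nfkbib went from 10.8% to 6.83% in spleen CD4 cells and from 14.8% to 7.65% in spleen CD8 cells, and Nfkbie from 13.3% to 9.09% and from 15.4% to 7.59%. In tumor CD4 cells Nfkbib went from 10.7% to 7.14% and Nfkbie from 9.24% to 6.93%, and in tumor CD8 cells Nfkbib from 13.6% to 7.89% and Nfkbie from 14.9% to 10.7%. None of these 8 pairs of groups overlapped. Nfkbid was separate and smaller after LCL161 in spleen CD8 (4.06% to 2.07%), tumor CD4 (4.53% to 1.90%) and tumor CD8 cells (6.33% to 2.30%), but not in spleen CD4 cells. Bcl3 had a mean share of 7.16% to 14.1% over the groups, with controls and treated libraries overlapping in every population. Nfkbiz had the smallest share in each of the 4 vehicle groups, 1.32% in spleen CD4 and 1.03% to 1.36% in spleen CD8 cells, and took 3.65% ± 1.45 in spleen CD8 cells after LCL161.

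**Figure D3:**
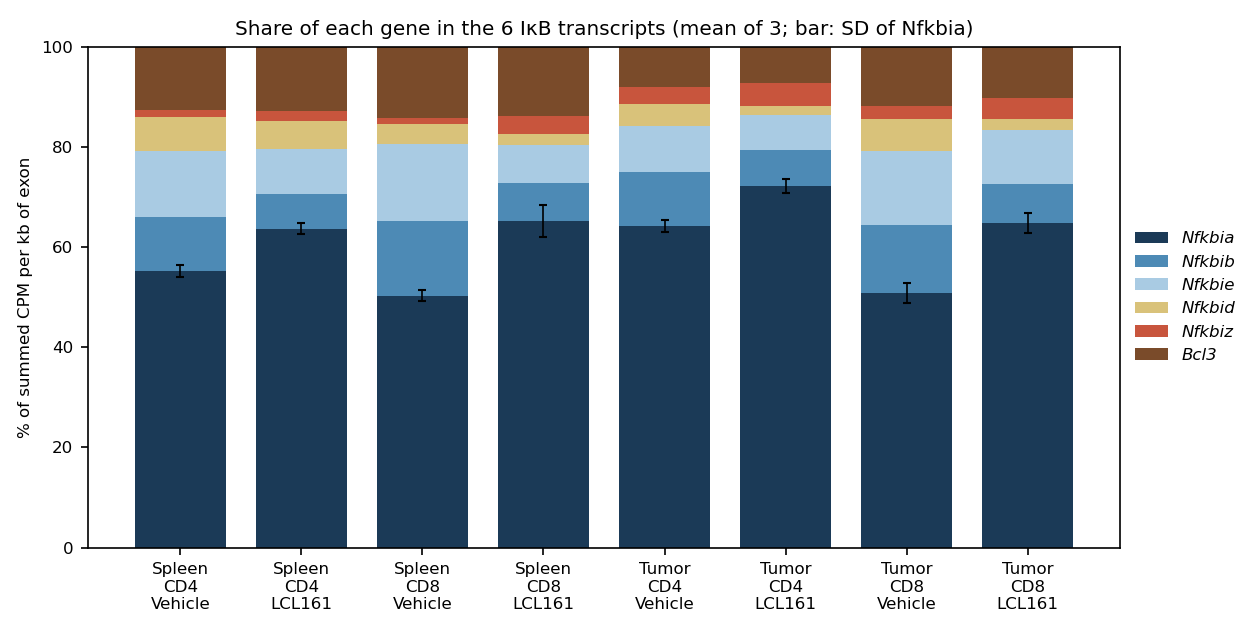
Share of each of the 6 genes in their summed CPM per kb of exon, in percent, as means of 3 libraries for each of the 8 groups; error bars are the SD of Nfkbia. The Nfkbia segment is taller after LCL161 than after vehicle in each of the 4 population pairs, at 63.7% against 55.2% in spleen CD4 cells and 72.3% against 64.3% in tumor CD4 cells.

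Between the highest and the lowest group mean Nfkbiz ranged 15.6-fold, Nfkbia 6.18-fold, Nfkbid 4.33-fold, Bcl3 3.73-fold, Nfkbib 2.27-fold and Nfkbie 2.11-fold. For Nfkbia the order of mean CPM was tumor CD4, spleen CD4, spleen CD8 and tumor CD8 after LCL161, then tumor CD4, spleen CD4, spleen CD8 and tumor CD8 after vehicle. Neighbours overlapped within the first 4 and between the last 2, while the lowest treated group (607 ± 113 CPM) was separate from the highest control (425 ± 68.6 CPM). Bcl3 likewise had all 4 treated groups above all 4 controls, the lowest treated group at 145 ± 16.5 CPM and the highest control at 101 ± 6.89 CPM without overlap, but its order within each treatment began with spleen CD4 cells. Nfkbib had the same division by means only, since its lowest treated group (99.5 ± 17.0 CPM) overlapped the tumor CD4 controls (96.1 ± 21.9 CPM). Nfkbie was highest in spleen CD4 cells after LCL161 (166 to 256 CPM), which tumor CD4 (197 ± 26.9 CPM) and tumor CD8 cells (189 ± 32.5 CPM) overlapped, and the spleen CD8 treated group at 139 ± 16.3 CPM overlapped the spleen CD4 controls at 131 ± 34.2 CPM. Nfkbiz was highest in treated tumor CD4 cells, and tumor CD4 controls (68.6 ± 37.8 CPM) overlapped treated spleen CD4 cells (72.9 ± 25.3 CPM).

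The 4 CD4 groups of Nfkbid came before its 4 CD8 groups, whatever the treatment. It was highest in treated spleen CD4 cells (95.9 ± 27.9 CPM), which no other group overlapped, followed by the 3 other CD4 groups at 50.7 ± 3.50, 43.8 ± 9.15 and 40.8 ± 5.10 CPM. The 4 CD8 groups came last, from 31.8 ± 4.46 to 22.2 ± 1.66 CPM, and the lowest treated tumor CD4 library (35.4 CPM) was above the highest vehicle tumor CD8 library (35.1 CPM), the next group in the order. The tumor CD8 libraries after LCL161 reached 37.1 CPM, above that CD4 library.

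Tumor and spleen were compared within each treatment. In vehicle CD4 cells Nfkbia (0.57 ± 0.19, adjusted p = 0.0431) and Nfkbiz (1.69 ± 0.40, adjusted p = 0.00715) were higher in the tumor, 2 of 6 where 16.4% of all genes passed in either direction. In LCL161 CD4 cells Nfkbiz was again higher in the tumor (1.58 ± 0.39, adjusted p = 0.00756), whereas Nfkbid (-1.23 ± 0.23, adjusted p = 0.00102) and Bcl3 (-0.50 ± 0.17, adjusted p = 0.0433) were lower, 3 of 6 against 21.3% of all genes. The Bcl3 groups overlapped, and that call was lost without LCL161 replicate 1 or 3 of either tissue (adjusted p of 0.0895 to 0.146). The Bcl3 call was also lost without a filter on low counts and when only the libraries compared were fitted. Without LCL161 replicate 1 of the spleen Nfkbia (0.69, adjusted p = 0.0214) and Nfkbib (0.60, adjusted p = 0.0336) passed as higher in the tumor. In vehicle CD8 cells none of 6 passed, against 14.8% of all genes, with 3 at an unadjusted p under 0.05 (27.9% of all genes) and none with DESeq2. In LCL161 CD8 cells none passed either, against 8.77%, with 2 at an unadjusted p under 0.05 (24.7% of all genes) and none with DESeq2. The largest estimate in the vehicle CD8 comparison was that of Nfkbiz, 13.3 to 15.3 CPM in the spleen and 23.3 to 32.9 CPM in the tumor (1.02 ± 0.39, adjusted p = 0.0899). Fitted on those 6 libraries alone, 4 members passed there, Nfkbid and Nfkbiz higher and Nfkbib and Bcl3 lower in the tumor. The share of all genes that passed in that fit is not given, so the 4 cannot be set against it.

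The Nfkbia call in vehicle CD4 cells was lost when any library but vehicle replicate 3 of the tumor was left out (adjusted p up to 0.167), and that of Nfkbiz without vehicle replicate 1 of the tumor, the library with 108 CPM (1.18, adjusted p = 0.0511). Neither passed when only the 6 libraries were fitted. The CD4 libraries of tumor and spleen also differed in markers of other cells. Separate and higher in the tumor controls were 4 of the 11 lists, those of monocytes and macrophages (all 9 higher, 2926 to 6105 CPM against 385 to 454 CPM in the spleen), pancreatic acinar cells (18.3 to 52.4 CPM against 11.5 to 16 CPM), ductal and tumor epithelium (36.5 to 195 CPM against 11.1 to 16.1 CPM) and fibroblasts (23.0 to 65.9 CPM against 0.582 to 2.72 CPM). In the acinar, epithelial and fibroblast lists alike, 3 of 4 markers had higher means and 1 a lower one. Separate and lower were 2 lists, those of B cells, with all 5 markers lower in every tumor library (19.97 to 234 CPM against 737 to 1882 CPM), and of plasma cells (255 to 464 CPM against 636 to 788 CPM). Of the 4 plasma cell markers 3 had lower means and 1 was higher in every tumor library. After LCL161, the lists for monocytes and macrophages (8 of 9 higher, 1076 to 1791 CPM against 210 to 688 CPM), ductal and tumor epithelium (3 of 4 higher, 50.9 to 68.98 CPM against 6.09 to 10.4 CPM) and fibroblasts (17.6 to 226 CPM against 0.777 to 3.61 CPM) were separate and higher in the tumor. Lower there, in the direction of the Nfkbid and Bcl3 differences, were the 5 B cell markers, again in every tumor library (16.7 to 53.3 CPM against 611 to 1289 CPM), and the sum of the plasma cell markers (256 to 308 CPM against 424 to 1031 CPM). Here too 3 of the 4 plasma cell markers had lower means and 1 was higher in every tumor library. The part of these markers in the tissue differences was not tested.

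In the main fit only Nfkbia and Nfkbid passed between CD8 and CD4 cells of the same tissue, each lower in CD8 cells. In the vehicle spleen Nfkbia (-0.59 ± 0.19, adjusted p = 0.0487) and Nfkbid (-1.19 ± 0.23, adjusted p = 0.00229) were lower in CD8 cells, 2 of 6 against 11.4% of all genes. In the vehicle tumor Nfkbia was lower (-1.28 ± 0.19, adjusted p = 0.00105), 1 of 6 against 4.07%, and its CD4 libraries at 363 to 499 CPM lay far above its CD8 libraries at 161 to 183 CPM. In the LCL161 spleen Nfkbid was lower (-1.68 ± 0.23, adjusted p = 9.33e-05), 1 of 6 against 17.4%, a count near the share over all genes. In the LCL161 tumor Nfkbia was lower (-0.84 ± 0.19, adjusted p = 0.0213), 1 of 6 against 2.87%. The spleen call of Nfkbia was lost with each of the 6 libraries left out in turn, with an adjusted p up to 0.161. The tumor call after LCL161 was lost without LCL161 replicate 1 or 2 of the CD4 or replicate 2 or 3 of the CD8 cells (adjusted p up to 0.108). In the vehicle tumor Nfkbib passed without CD4 replicate 3 (-0.75, adjusted p = 0.0403) and Nfkbiz without CD4 replicate 2 (-1.58, adjusted p = 0.0264). In the LCL161 spleen Nfkbie passed without CD4 replicate 2 (-0.69, adjusted p = 0.0350). Markers of other cells differed here as well. In the vehicle spleen the 7 conventional dendritic cell markers were higher in CD8 cells (1546 to 1697 CPM against 99.2 to 276 CPM, 6 of 7 higher), as were those of mast cells and basophils (129 to 169 CPM against 61.1 to 113 CPM). In the direction of the Nfkbia and Nfkbid differences, all 5 plasmacytoid dendritic cell markers had lower means in CD8 cells (325 to 394 CPM against 487 to 2246 CPM). Also separate and lower there were the acinar (2.10 to 4.93 CPM against 11.5 to 16 CPM) and epithelial lists (6.84 to 8.54 CPM against 11.1 to 16.1 CPM), while the 5 B cell markers had lower means with sums that overlapped (639 to 792 CPM against 737 to 1882 CPM). Of the 4 acinar markers 3 had lower means and 1 a higher one, with Cpa1 at 0 in CD8 cells. Of the 4 epithelial markers 2 had lower means and 1 a higher one, with Krt19 at 0 in both groups. In the LCL161 spleen, conventional dendritic cell (6 of 7 higher, 168 to 503 CPM against 75.2 to 149 CPM) and NK cell markers (3 of 4 higher, 133 to 154 CPM against 43.0 to 83.6 CPM) were separate and higher in CD8 cells and acinar markers lower (3 of 4 lower, 4.29 to 8.30 CPM against 13.8 to 23.9 CPM). The means of all 5 plasmacytoid dendritic cell and all 5 B cell markers were lower there too, with sums that overlapped (316 to 361 CPM against 281 to 786 CPM, and 524 to 749 CPM against 611 to 1289 CPM). In the vehicle tumor the monocyte and macrophage markers, all 9 lower in CD8 cells (1777 to 2265 CPM against 2926 to 6105 CPM), the neutrophil (33.6 to 119 CPM against 139 to 220 CPM) and the mast cell and basophil markers (17.1 to 26.1 CPM against 39.4 to 237 CPM) were separate and lower. The sum of the 4 NK cell markers was separate and higher (114 to 256 CPM against 10.3 to 88.3 CPM), but 2 had higher and 2 lower means. In the LCL161 tumor, the sums of conventional dendritic cell (133 to 213 CPM against 61.9 to 88.5 CPM) and NK cell markers (113 to 147 CPM against 18.8 to 45.4 CPM) were separate and higher in CD8 cells, and the epithelial (37.2 to 47.4 CPM against 50.9 to 68.98 CPM) and fibroblast lists (9.09 to 11.7 CPM against 17.6 to 226 CPM) lower. Of the 4 NK cell markers, 2 had higher and 2 lower means there too, and of the 4 epithelial markers 1 had a higher mean and 3 a lower one. The part of these lists in the differences was not tested. These comparisons share libraries with one another and with the treatment comparisons, so their values are given side by side only.

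**Figure D4:**
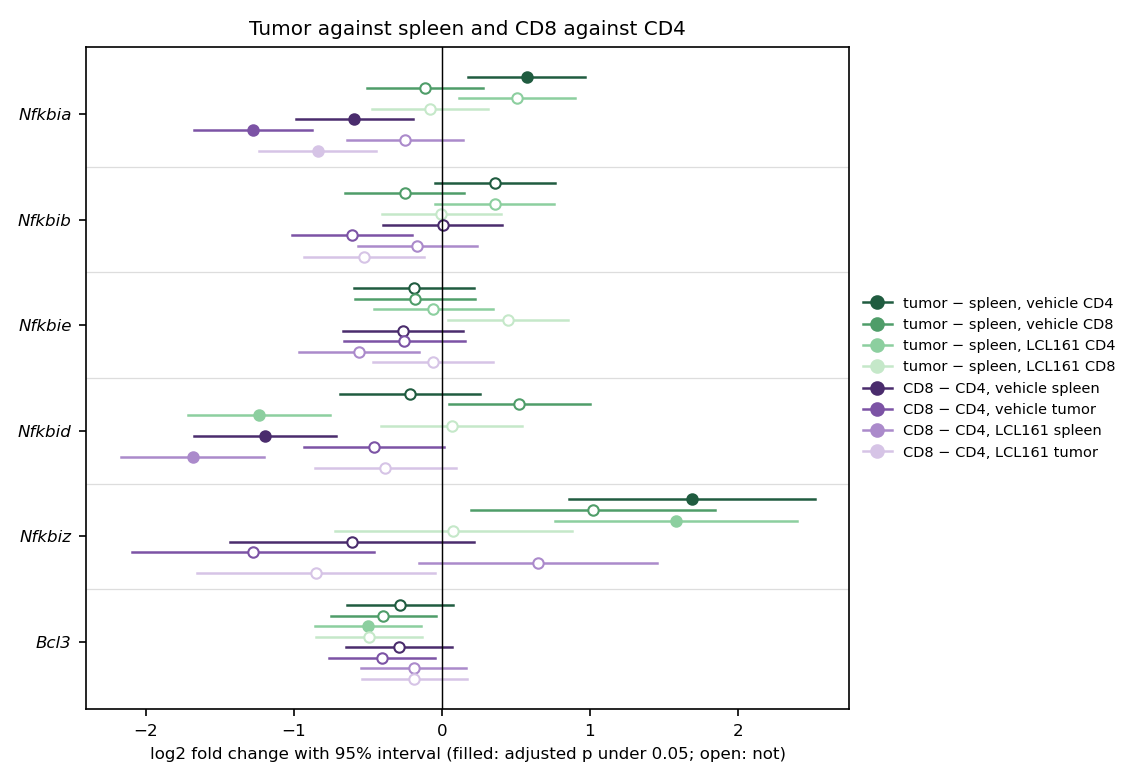
Log2 fold change with its 95% interval for tumor against spleen (green) and CD8 against CD4 cells (purple) for each IκB gene; filled points passed at an adjusted p under 0.05. Nfkbiz lies highest in tumor CD4 cells (1.69 and 1.58), Nfkbid is lower in CD8 than in CD4 cells of the spleen (-1.19 and -1.68), and Nfkbib and Nfkbie have no filled point.

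Other genes of the NF-κB pathway were read from 5 lists of 37 genes in all, every one of which was tested. In spleen CD4 cells 5 of the 37 passed as higher, where 0.238% of all genes tested did, and none as lower. In spleen CD8 cells 7 passed as higher, against 4.1% of all genes, and 2 as lower, against 4.18%. Tumor CD4 cells gave 4 higher, against 0.114%, and tumor CD8 cells 5 higher, against 0.233%, with none lower in either. In the average 11 passed as higher, against 9.73%, and 3 as lower, against 8.97%, and both counts of lower genes were near the share over all genes. The median log2 fold change over the 37 was 0.06, -0.03, 0.24 and 0.16 in the 4 populations, against 0.02, 0.07, -0.01 and 0.00 over all genes. These lists too were chosen with earlier results of these data known, so the counts only describe them.

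Among the 5 NF-κB subunits, Relb, the partner of p52, rose in every population, from 101 ± 15.4 to 213 ± 69.3 CPM in spleen CD4 (1.09 ± 0.18, adjusted p = 0.0195) and from 82.8 ± 12.9 to 198 ± 20.7 CPM in tumor CD8 cells (1.26 ± 0.18, adjusted p = 0.00616). Nfkb2, the gene of the p52 precursor, rose in spleen CD4 (1.39 ± 0.24), spleen CD8 (0.79 ± 0.24) and tumor CD8 cells (from 142 ± 19.0 to 402 ± 77.0 CPM), and in tumor CD4 cells it stood at 1.13 ± 0.24 with an adjusted p of 0.0504. Nfkb1, the gene of the p50 precursor, fell in spleen CD8 cells from 96.9 ± 12.0 to 61.9 ± 5.38 CPM (-0.65 ± 0.13, adjusted p = 0.00651). Of 8 IκB kinase subunits and upstream kinases none rose, and Map3k14, which encodes NIK, fell in spleen CD8 cells (-1.26 ± 0.27, adjusted p = 0.00927), the population in which dendritic cell markers were also lower. Of 8 IAP and TRAF genes, Birc3, which encodes cIAP2, and Traf1 rose in all 4 populations, with Birc3 at 0.79 ± 0.17, 0.78 ± 0.17, 0.92 ± 0.17 and 1.26 ± 0.17, and Traf2 rose in spleen CD8 cells (0.65 ± 0.15).

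None of the 6 genes for ubiquitination and removal of IκB proteins passed with edgeR or DESeq2 in any population or in the average, where 0.248% to 18.7% of all genes passed in either direction, so that a count of 0 among 6 does not set this list apart from other genes. At an unadjusted p under 0.05 edgeR counted 1 of them in spleen CD4 cells, against 15.9% of all genes, 2 in spleen CD8 cells, against 25%, and 0 in tumor CD4 cells (14.1%), tumor CD8 cells (10.7%) and the average (32.7%). Of 10 genes of negative feedback and RNA decay, Zc3h12a rose in all 4 populations (1.89 ± 0.41, 1.91 ± 0.42, 2.05 ± 0.41 and 2.38 ± 0.42). It encodes Regnase-1, an endonuclease known to cut Nfkbiz messenger RNA. Tnfaip3, which encodes the deubiquitinating enzyme A20, rose in spleen CD8 cells (1.57 ± 0.32, adjusted p = 0.00785) and stood at 1.29 ± 0.32 in tumor CD8 cells with an adjusted p of 0.113. In the average over populations further genes passed, among them Rela, the p65 subunit (0.22 ± 0.06), Tnip1, which encodes the A20 partner ABIN-1 (0.51 ± 0.10), and Birc2, which encodes cIAP1 (0.37 ± 0.11), as higher. The 3 lower genes were Map3k14 (-0.39 ± 0.13), Traf5 (-0.37 ± 0.08) and Zfp36, which encodes the RNA decay factor tristetraprolin (-0.52 ± 0.14).

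Most calls on these lists rested on few libraries. The calls in spleen CD4 and tumor CD4 cells were all lost when only the libraries compared were fitted. Leaving out 1 library at a time, Birc3 was lost in spleen CD4 cells with each of 6 (adjusted p up to 0.156) and in tumor CD8 cells with none. In spleen CD8 cells Nfkb2, Relb and Traf1 were each lost with 5 of 6 (adjusted p up to 0.252, 0.148 and 0.106). In the same cells Nfkb1, Map3k14 and Tnfaip3 were lost only without LCL161 replicate 3 (adjusted p of 0.0527, 0.0686 and 0.0587). Zc3h12a was lost with 5 of 6 in spleen CD4, 2 in spleen CD8, 4 in tumor CD4 and 5 in tumor CD8 cells (adjusted p up to 0.196). Its spleen CD8 value fell from 1.91 to 1.06 (adjusted p = 0.0589) without LCL161 replicate 1. In the average over populations Map3k14 was lost with 17 of 24 libraries and Birc2 with 5 (adjusted p up to 0.0924 and 0.0563). The dendritic, plasma and mast cell marker sums were lower in spleen CD8 cells after LCL161, where 7 of the 37 pathway genes passed as higher and 2 as lower. The part of those markers in the pathway calls was not tested.

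**Figure D5:**
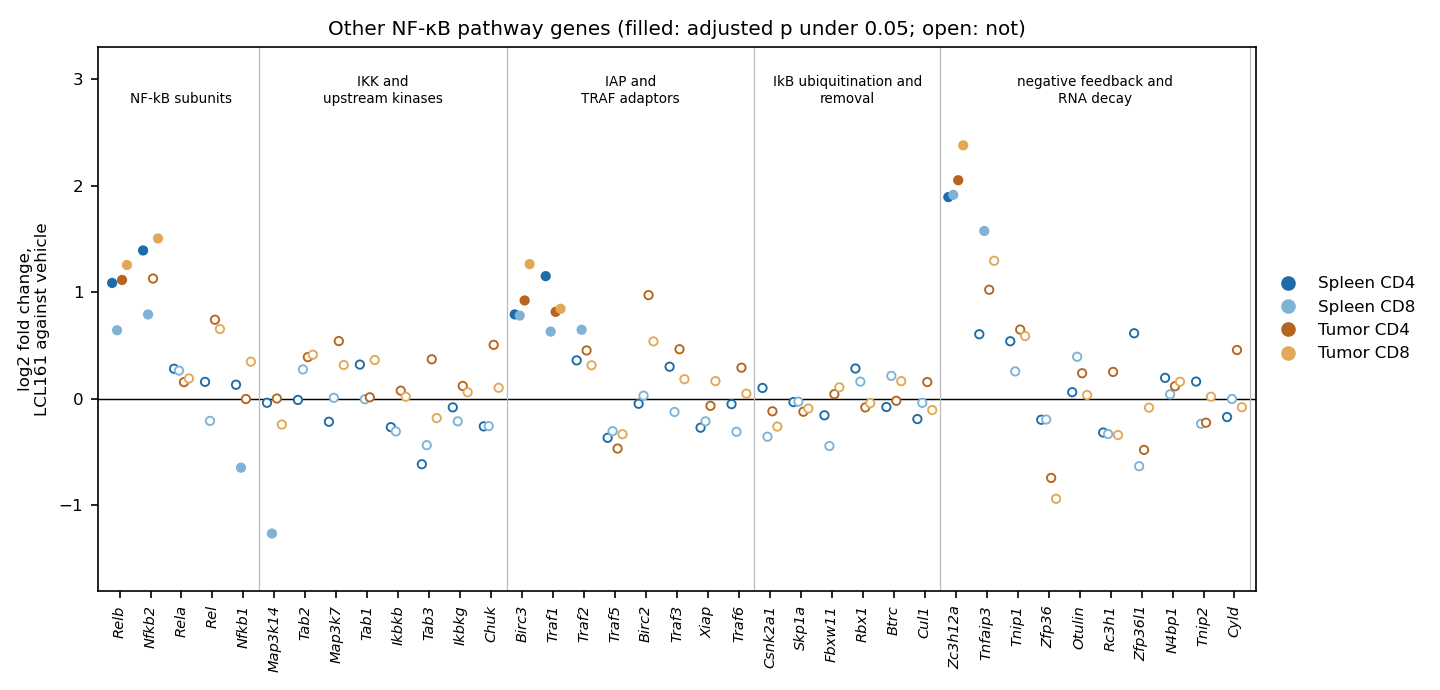
Log2 fold change of LCL161 against vehicle for 37 further NF-κB pathway genes in 5 groups, in the 4 populations; filled points passed at an adjusted p under 0.05. Relb, Birc3, Traf1 and Zc3h12a are filled in all 4 populations, and the group for IκB ubiquitination has no filled point.

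Over the 24 libraries the log2 CPM of the members were described by Pearson's r, without a test, since these libraries share treatment, tissue and depth. Nfkbia and Nfkbib had an r of 0.90, Nfkbia and Nfkbiz 0.90, Nfkbia and Bcl3 0.85, and Nfkbia and Nfkbie 0.84, whereas Nfkbid had 0.24 to 0.49 with the other members. After the mean of each group was subtracted, Nfkbia and Nfkbib stood at 0.85, Nfkbia and Nfkbie at 0.75, Nfkbia and Bcl3 at 0.71 and Nfkbia and Nfkbiz at 0.60. Nfkbid then had 0.29 to 0.51 with the other members and no longer stood apart, since Nfkbie and Nfkbiz were at 0.39 and Nfkbiz and Bcl3 at 0.43. Of 10321 genes with a mean of at least 5 CPM, those most like Nfkbia were Nfkb2 (0.93), Relb (0.91) and Pex16 (0.91). The nearest to Nfkbib were Nfkb2 (0.91), Nfkbia (0.90) and Mdh2 (0.89), and to Nfkbie Relb (0.89), Nfkb2 (0.87) and Elp5 (0.85). Nfkbiz was most like Map3k8 (0.94), Traf1 (0.91) and Zc3h12a (0.90). The genes nearest to Bcl3 were Limd2 (0.90), Kdm6b (0.87) and Birc3 (0.86). The 3 nearest to Nfkbid were Ksr1 (0.93), B3gnt2 (0.91) and Ggt7 (0.90), none of them on the pathway lists. With group means subtracted, the nearest gene was Pde6d for Nfkbia (0.89) and Nfkbib (0.91), Traf4 for Nfkbie (0.84), Neurl4 for Nfkbid (0.80), Dync1i2 for Nfkbiz (0.89) and Lag3 for Bcl3 (0.85).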

How the data were processed

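RNA of 24 sorted-cell libraries was analysed from 1 deposited table of expected counts for 55025 gene symbols, of which 38730 had a count. Of the non-zero deposited counts 52.7% were not whole, so they were rounded. Cutadapt, STAR 2.7.3a and the GRCm38 build are named in the submitters' processing notes. For the counting tool, its annotation and strand, the sources used here name none. Groups were taken from the labels.

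A robust quasi-likelihood fit (edgeR 4.0.16 in R 4.3.3) used TMM scaling (factors 0.94 to 1.05), a minimum count of 10 and 1 mean per group, with 16 residual degrees of freedom. This left 20174 genes, and p-values were adjusted by Benjamini-Hochberg within each of 17 comparisons. The biological coefficient of variation was 0.33. Log2 levels used a prior count of 2. Steps were tested on simulated data. Alternatives were RLE or no scaling, other filters on low counts, DESeq2 1.42.0, a replicate block, a fit of only the libraries compared, and leaving out each library.

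The members, pathway lists and marker lists were chosen with earlier results of these data known. All 6 members were named throughout. From each pathway list up to 4 called genes with the smallest adjusted p were named per treatment comparison, and for each member the 3 genes most like it. Birc2 and Tnfaip3 in tumor CD8 cells were named outside that rule, after their values were seen.

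No 2 replicates agreed within sampling noise (chi-square per gene of 13.03 to 134.85 over 24 pairs), so none was counted as 1 sample. Same-numbered libraries deviated together, with every correlation over 0.1, only in tumor against spleen CD8 cells after LCL161 (0.112 to 0.166). There the numbers may pair the libraries, which no label states. The replicate block was a shared effect of the number over all 24 libraries, and with it the count there was also 0. No test of those libraries as pairs was run. Exon lengths and positions come from the GRCm38 annotation and promoter windows from RefSeq.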

Additional observations from a re-analysis of the deposited data

How the results depend on the processing

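Counts of IκB genes that passed moved by over 1.5 times under these alternatives, and the cause was not tested. With DESeq2 the count was 4 for LCL161 against vehicle in spleen CD4 and in tumor CD4 cells, 3 for CD8 against CD4 in the vehicle tumor and 2 in the LCL161 spleen. Fitted on only the libraries compared it was 0 in spleen CD4 and tumor CD4 cells, and for tumor against spleen 0 in vehicle CD4, 4 in vehicle CD8 and 1 in LCL161 CD8 cells. Without any scaling beyond library totals, an alternative added after seeing the data, or without a filter on low counts it was 1 for tumor against spleen in vehicle CD4 cells. Without a filter it was 1 for CD8 against CD4 in the vehicle spleen. In the LCL161 spleen it was 2 with RLE scaling, no scaling, the 5 CPM filter or the replicate block. The block added Nfkbie there (-0.54, adjusted p = 0.0320) and Nfkbia in tumor against spleen CD4 cells after LCL161 (0.52, adjusted p = 0.0394), and it changed no other count. By the labels the libraries share only a number. Elsewhere than in tumor against spleen CD8 cells after LCL161, same-number correlations ran from -0.168 to 0.112. In 2 other comparisons every library correlated best with its own number, which is a hint from the data and not the design.

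Leaving out 1 library gave counts of 0 to 3 in spleen CD4, 0 to 3 in tumor CD4 and 1 to 4 in tumor CD8 cells for LCL161 against vehicle. For tumor against spleen in vehicle CD4 cells it gave 0 to 2. For CD8 against CD4 it gave 1 throughout in the vehicle spleen, 1 to 2 in the vehicle tumor, 1 to 2 in the LCL161 spleen and 0 to 1 in the LCL161 tumor.

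Signs turned only for values that did not pass. The largest of them was the tumor CD8 minus CD4 difference of effect for Nfkbiz, at 0.42. For the CD4 tumor minus spleen difference of effect, Nfkbib was 0.0028 with RLE scaling, 0.0052 with DESeq2, 0.0427 with the replicate block and 0.0181 on only the libraries compared, and Nfkbiz was 0.027 with the block. Nfkbia was -0.0064 without scaling in the CD8 tumor minus spleen difference. Nfkbib was 0.0033 with RLE scaling, 0.0041 without a filter and 0.01 with DESeq2 for tumor against spleen in LCL161 CD8 cells, and -0.0536 without scaling and -0.0061 with the block for CD8 against CD4 in the vehicle spleen. Nfkbie was 0.0065 without scaling for CD8 against CD4 in the LCL161 tumor. Leaving out 1 library, the effect of LCL161 on Nfkbid ran from -0.1791 to 0.0914 in tumor CD4 and from -0.178 to 0.0647 in tumor CD8 cells. The CD4 tumor minus spleen difference ran from -0.2125 to 0.1425 for Nfkbia, -0.2009 to 0.2691 for Nfkbib, -0.021 to 0.3407 for Nfkbie and -0.418 to 0.3986 for Nfkbiz. In CD8 cells it ran from -0.1919 to 0.0242 for Bcl3 and -0.1216 to 0.2344 for Nfkbia. The spleen CD8 minus CD4 difference ran from -0.0496 to 0.1941 for Bcl3 and -0.4044 to 0.0656 for Nfkbib, and the tumor one from -0.1236 to 0.2237 for Nfkbib, -0.126 to 0.1546 for Nfkbid and -0.0836 to 0.7321 for Nfkbiz. Tumor against spleen after LCL161 ran from -0.1889 to 0.1243 for Nfkbie in CD4 cells, and in CD8 cells from -0.2458 to 0.1102 for Nfkbia, -0.1542 to 0.0828 for Nfkbib, -0.1701 to 0.2627 for Nfkbid and -0.2537 to 0.4147 for Nfkbiz. CD8 against CD4 ran from -0.0514 to 0.0569 for Nfkbib in the vehicle spleen, -0.3904 to 0.0798 for Nfkbib in the LCL161 spleen and -0.2005 to 0.0538 for Nfkbie in the LCL161 tumor.

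Over all genes the count for LCL161 against vehicle was 87 in spleen CD4 (0 to 633 over the settings that kept every library of the comparison), 1670 in spleen CD8 (990 to 2531), 65 in tumor CD4 (0 to 719) and 50 in tumor CD8 cells (39 to 292). Leaving out 1 library it ran from 0 (without LCL161 replicate 1) to 220 (without vehicle replicate 2) in spleen CD4, from 246 (without LCL161 replicate 3) to 1702 in spleen CD8, from 0 (without vehicle replicate 2) to 375 (without vehicle replicate 3) in tumor CD4 and from 4 (without vehicle replicate 1 or LCL161 replicate 2) to 42 in tumor CD8 cells. In each population 5 of the 6 libraries moved it by over 1.5 times, all but LCL161 replicate 2, 1, 3 and 3 in that order, and the shares of all genes called move with it. With 3 libraries a group an absent call does not show an absent difference.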
